A study of Mus musculus with 24 samples.

Results

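The genes described are 10 markers of striatal interneurons, taken by symbol from the 24079 genes counted in 24 libraries: *Sst*, *Npy*, *Nos1*, *Pvalb*, *Calb2*, *Th*, *Chat*, *Slc5a7*, *Slc18a3* and *Lhx8*. All 10 had enough reads to be tested in every comparison. Polysome profiling was followed by RNAseq of the nucleus accumbens (Acb) and dorsal striatum (DS) in rpS6 knockin mice and wild-type littermates. For each region and genotype, heavy polysomal fractions (mRNAs carrying 4 or more ribosomes) and whole lysates were sequenced in 3 biological replicates, which gave 8 groups. The study asked whether loss of phosphorylated ribosomal protein S6 changes which mRNAs are translated in the striatum.

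All mice came from crosses of heterozygous animals on a mixed C57Bl/6/Sv129/ICR background. In the knockin mice (rpS6P-/-), every phosphorylation site of rpS6 carries alanine, in all cells and from conception, whereas wild-type littermates carry the unmodified gene. Males and females were used, tissue of several mice was pooled for each replicate, no treatment was given, and ages are not given in the sources used here. The Acb was cut from a more anterior slice than the DS, and both were dissected by hand, so each lysate holds every cell type of the piece. *Rps6* itself was read at 270 to 488 CPM (reads scaled to library size) in the 12 wild-type libraries and 305 to 442 CPM in the 12 knockin libraries, and counts per gene cannot check a change of single residues.

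Most striatal neurons are medium spiny projection neurons, and interneurons are a small minority that shapes their firing. One class makes the peptides somatostatin and neuropeptide Y together with nitric oxide, another is fast-spiking and holds the calcium buffer parvalbumin, another holds calretinin, and a sparse one makes tyrosine hydroxylase. Cholinergic interneurons are large, tonically active cells that synthesise acetylcholine, take its precursor choline back up and load the transmitter into vesicles. Since each lysate mixes all cells, fewer cells of a class and less RNA per cell cannot be told apart in any value below.

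Promoters are shown for *Sst* and *Npy*, whose levels moved together, and for *Chat* and *Slc18a3*, which share a locus. That of *Th* is shown for a motif it shares with *Sst*. *Calb2* and *Lhx8*, whose levels also moved together, are not shown. *Sst* (chr16:23889573-23891342, minus strand) and *Npy* (chr6:49822710-49829507, plus strand) were both enriched in heavy polysomal fractions. *Chat* (chr14:32408203-32465909, minus strand) contains the whole of *Slc18a3* (chr14:32462437-32464850, same strand), and the starts of these genes lie 1059 bases apart. *Th* lies at chr7:142892779-142899995 on the minus strand. The start is that of the promoter table, which for *Sst* lies inside the outer bounds of the gene. Sequences run 5′ to 3′ from 250 bases before to 50 bases after the start, from RefSeq on GRCm38.p6. The 5 windows were chr16:23890795-23891094, chr6:49822460-49822759, chr7:142899946-142900245, chr14:32465860-32466159 and chr14:32464801-32465100. Capitals mark TGACGTCA, the cAMP response element, or CACGTG, an E-box, both searched as exact letters, which read the same on either strand.
*Sst*: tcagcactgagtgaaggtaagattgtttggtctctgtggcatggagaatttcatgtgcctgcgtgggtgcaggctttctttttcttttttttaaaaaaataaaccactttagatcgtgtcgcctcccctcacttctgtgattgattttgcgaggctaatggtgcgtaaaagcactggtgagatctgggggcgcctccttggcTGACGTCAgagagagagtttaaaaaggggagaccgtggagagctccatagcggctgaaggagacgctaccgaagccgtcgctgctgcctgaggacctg
*Npy*: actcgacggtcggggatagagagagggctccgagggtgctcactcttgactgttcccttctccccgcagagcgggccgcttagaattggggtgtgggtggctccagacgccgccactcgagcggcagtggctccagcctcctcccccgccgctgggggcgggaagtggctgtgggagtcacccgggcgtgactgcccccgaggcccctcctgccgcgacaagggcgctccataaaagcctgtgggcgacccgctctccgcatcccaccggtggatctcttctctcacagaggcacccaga
*Th*: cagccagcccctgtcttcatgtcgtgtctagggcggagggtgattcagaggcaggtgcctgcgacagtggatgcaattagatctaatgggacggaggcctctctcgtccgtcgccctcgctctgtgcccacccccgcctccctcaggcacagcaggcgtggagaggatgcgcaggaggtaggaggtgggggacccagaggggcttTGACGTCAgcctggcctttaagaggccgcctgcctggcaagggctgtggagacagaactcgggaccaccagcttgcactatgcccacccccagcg
*Chat*: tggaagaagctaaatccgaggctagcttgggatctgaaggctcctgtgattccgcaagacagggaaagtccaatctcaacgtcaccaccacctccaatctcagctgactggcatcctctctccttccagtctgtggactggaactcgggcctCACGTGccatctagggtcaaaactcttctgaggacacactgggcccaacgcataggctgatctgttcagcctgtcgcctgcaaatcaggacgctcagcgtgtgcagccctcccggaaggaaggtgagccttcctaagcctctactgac
*Slc18a3*: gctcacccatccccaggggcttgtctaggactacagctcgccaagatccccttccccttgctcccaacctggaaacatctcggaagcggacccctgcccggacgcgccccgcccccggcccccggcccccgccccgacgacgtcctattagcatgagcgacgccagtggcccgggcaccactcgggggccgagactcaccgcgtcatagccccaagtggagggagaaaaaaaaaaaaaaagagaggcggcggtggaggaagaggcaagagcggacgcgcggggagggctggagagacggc

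The cAMP response element began 48 bases before the start of *Sst* and 45 bases before that of *Th*. It was present in 588 of 32851 mouse promoters of the same length (1.79%). The E-box of *Chat* began 98 bases before the start, and 2349 promoters (7.15%) held one. Neither motif occurred in the windows of the other members with an entry, and 9 of 10 members had one (10 entries, 2 of them for *Pvalb*). *Calb2* had no entry. The other members lie at chr5:117866839-117958840 (*Nos1*), chr15:78191112-78206400 (*Pvalb*), chr8:110142526-110168212 (*Calb2*), chr17:54273590-54299038 (*Slc5a7*) and chr3:154306288-154330560 (*Lhx8*). Apart from *Chat* and *Slc18a3*, only *Nos1* overlapped annotated genes, both of them long non-coding RNAs.

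Libraries held 11109431 to 34703044 assigned reads in heavy polysomal fractions (median 19862908) and 9280589 to 20259509 in whole lysates, so that 3 reads corresponded to 0.0783 to 0.361 CPM. The non-coding RNA *Bc1* took 0.897 to 3.85% of reads in heavy polysomal fractions and 15.2 to 26.1% in whole lysates. Medium spiny neuron markers were abundant in every library (14 genes, 5796 to 9331 CPM in sum). In whole lysates, 10 cortical excitatory neuron genes summed to 140 to 279 CPM in the Acb and 954 to 1173 CPM in the DS. Choroid plexus and ependymal genes (8 genes) summed to 39.1 to 60.7 CPM in the Acb and 11.8 to 21.2 CPM in the DS. Septal, pallidal and basal forebrain genes (10 genes) summed to 749 to 887 and 512 to 680 CPM, but *Gad1*, which medium spiny neurons also express, made up 606 to 721 and 440 to 604 CPM of that. *Zic1*, a transcription factor gene of the septum, was at 19.4 to 41.6 CPM in the Acb and 5.02 to 11.7 CPM in the DS. Glial genes moved with region as well in whole lysates, with 6 of 7 microglial, 5 of 7 astrocyte and 5 of 8 oligodendrocyte genes higher in the Acb and 0 lower. Of medium spiny neuron genes, 4 of 14 were higher and 7 lower, and of all genes tested 9.71% were higher and 9.56% lower. In heavy polysomal fractions 6 microglial, 5 astrocyte and 2 oligodendrocyte genes were higher, and 1 oligodendrocyte gene was lower. The part of these cells in the regional differences of the members was not tested.

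Peptide genes were the most abundant members. Scaled to the length of their transcripts, *Sst* reached 204 ± 21.2 CPM per kilobase (SD, n = 6) in whole lysates of the Acb and *Npy* reached 94.7 ± 10.5. Next came *Calb2* (28.0 ± 5.72 CPM per kilobase) and then *Pvalb*, well above all that followed. The order among the remaining members of the Acb was *Lhx8* (6.85 ± 1.49), *Slc5a7* (6.76 ± 0.741), *Chat* (5.63 ± 0.802), *Th* (4.96 ± 1.30), *Nos1* (2.36 ± 0.899) and *Slc18a3* (2.13 ± 0.602 CPM per kilobase). Neighbours among these last 6 overlapped within 1 SD, except for *Th* and *Nos1*. In whole lysates of the DS, *Sst* (136 ± 35.6) and *Npy* (101 ± 4.68 CPM per kilobase) overlapped within 1 SD, *Pvalb* (37.9 ± 3.50) followed, and *Calb2* stood among the low members (4.58 ± 1.53). Below it followed *Chat* (4.04 ± 1.70), *Slc5a7* (3.50 ± 0.528), *Nos1* (3.13 ± 1.19), *Th* (2.30 ± 0.723), *Lhx8* (2.23 ± 0.741) and *Slc18a3* (1.41 ± 0.712 CPM per kilobase), each overlapping its neighbour within 1 SD. The transcript model used for *Nos1* is 4591 bases, of which 4389 are coding, so reads of a longer untranslated part would inflate its level per kilobase.

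**Figure D1:**
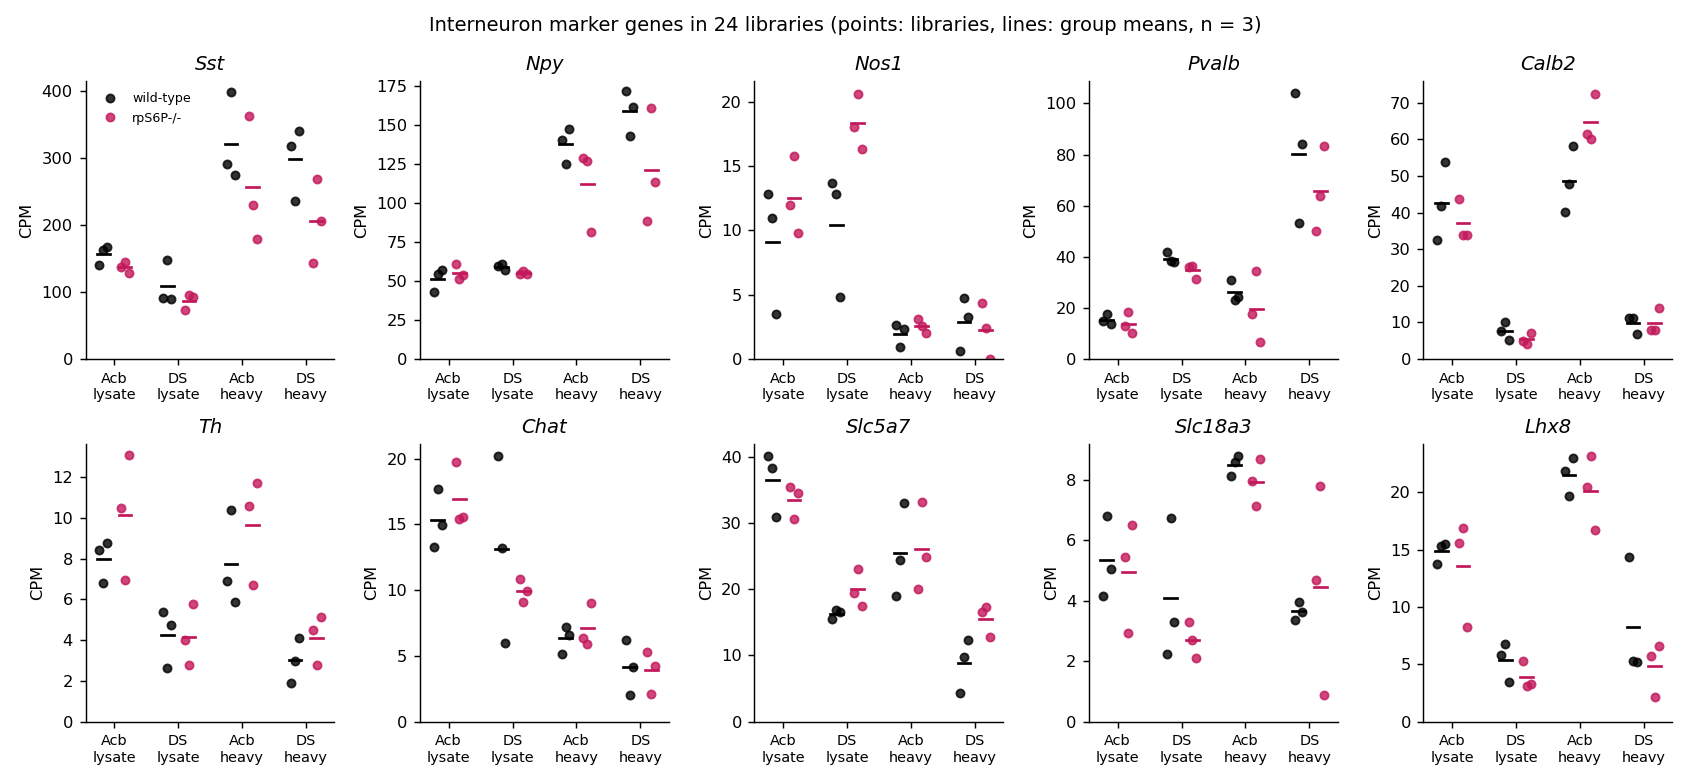
Level of each marker gene in CPM (reads scaled to library size) in the 24 libraries, by region and by whole lysate or heavy polysomal fraction; black points are wild-type and magenta points rpS6P-/- libraries, and lines are means of 3. *Calb2*, *Lhx8*, *Th* and *Slc5a7* were higher in the Acb, *Pvalb* was higher in the DS, and *Sst* and *Npy* were higher in heavy polysomal fractions than in whole lysates.

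Regions were compared first, to place the markers along the striatum. In whole lysates, 5 of the 10 members were higher in the Acb (*Calb2*, *Lhx8*, *Th*, *Slc5a7* and *Sst*) and 1 was lower (*Pvalb*), with an adjusted p under 0.05. Adjusted p here and below are Benjamini-Hochberg values over all genes tested, from the quasi-likelihood test of edgeR unless another tool is named, and errors of log2 fold changes are standard errors (SE). Of all 16364 genes tested, 19.3% were called, 9.71% higher and 9.56% lower. Heavy polysomal fractions also gave 5 members higher in the Acb (*Calb2*, *Lhx8*, *Th*, *Slc5a7* and *Slc18a3*) and *Pvalb* lower, beside 19.8% of 16880 genes called, 9.44% higher and 10.3% lower. The median log2 fold change of the members was 0.64 in whole lysates and 0.88 in heavy polysomal fractions, against 0.01 and 0.02 over all genes.

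*Calb2*, which encodes the calcium-binding protein calretinin, showed the largest difference of the members. Its whole-lysate level was 32.6 to 53.8 CPM in the Acb (median 38.0) and 4.12 to 10.1 CPM in the DS (median 6.20). The regions were far apart, and the fold change was 6.29 (log2 fold change 2.65 ± 0.19 SE, adjusted p 2.11e-17). In heavy polysomal fractions it was 40.2 to 72.6 CPM in the Acb and 6.78 to 13.8 CPM in the DS (5.74-fold, adjusted p 1.58e-09). Its log2 fold change exceeded that of 97.6% of genes tested in whole lysates and 97.0% in heavy polysomal fractions. Calretinin is also made by septal and other basal forebrain neurons, and 8 of 9 tested genes of that list were higher in whole lysates of the Acb. Their part in the difference of *Calb2* was not tested.

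*Pvalb* ran the other way. Whole lysates of the DS held 31.5 to 42.0 CPM (median 37.1) and those of the Acb 10.2 to 18.3 CPM (median 14.4), again without overlap. The log2 fold change of the Acb over the DS was -1.30 ± 0.16 SE (adjusted p 2.49e-09), and in heavy polysomal fractions -1.68 ± 0.25 SE (adjusted p 4.51e-05). The ratio of *Calb2* to *Pvalb* reads per library was 1.86 to 3.92 in whole lysates of the Acb and 0.113 to 0.265 in those of the DS. Parvalbumin is also made by cortical interneurons, and the cortical excitatory genes named above were higher in the DS, as were *Pvalb* reads: 9 of 10 were lower in the Acb in whole lysates and 8 of 10 in heavy polysomal fractions. Their part in the difference of *Pvalb* was not tested. Among 8 other genes of fast-spiking cells, 1 was higher in the Acb (*Kit*, 0.46) and 1 lower (*Kcnc2*, -0.33) in whole lysates, and the median log2 fold change of the list was 0.03. In heavy polysomal fractions 1 was higher (*Kit*, 0.65) and 2 were lower (*Eya1*, -1.08, and *Cox6a2*, -0.91), with a median of 0.15.

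Members of the cholinergic class were all read at higher mean levels in the Acb, although not all passed the test. *Lhx8*, a LIM homeobox transcription factor of cholinergic neurons, was read at 8.24 to 16.9 CPM in the Acb and 3.10 to 6.74 CPM in the DS in whole lysates, without overlap (3.17-fold, adjusted p 1.55e-06). In heavy polysomal fractions its levels were 16.7 to 23.2 and 2.16 to 14.3 CPM, where the highest DS library was wild-type replicate 1 (3.32-fold, adjusted p 8.29e-05). *Slc5a7*, the high-affinity choline transporter, was read at 30.7 to 40.2 CPM in the Acb and 15.4 to 23.0 CPM in the DS in whole lysates (1.99-fold, adjusted p 7.91e-07), and at 19.0 to 33.2 and 4.38 to 17.3 CPM in heavy polysomal fractions (2.18-fold, adjusted p 9.21e-04). Regions did not overlap for *Slc5a7* in either kind of RNA.

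*Chat*, which makes acetylcholine, and *Slc18a3*, which carries it into vesicles, were less clear. Whole-lysate levels of *Chat* were 13.3 to 19.8 CPM in the Acb (median 15.5) and 5.99 to 20.2 CPM in the DS (median 10.4). DS wild-type replicate 1, the highest of these libraries, was alone in reaching the Acb range (log2 fold change 0.52 ± 0.22 SE, adjusted p 0.102). Without that library the log2 fold change of *Chat* was 0.74 (adjusted p 0.0186), and in heavy polysomal fractions it went from 0.74 (adjusted p 0.0785) to 0.94 without the heavy library of the same replicate (adjusted p 0.0275). *Slc18a3* was read at 7.12 to 8.79 CPM in heavy polysomal fractions of the Acb and 0.899 to 7.80 CPM in those of the DS, which overlapped (log2 fold change 1.02 ± 0.32 SE, adjusted p 0.0286). This call was lost, with adjusted p from 0.0504 to 0.0603, on leaving out Acb wild-type replicate 2 or 3, Acb rpS6P-/- replicate 1, or DS wild-type replicate 1 or 3. In whole lysates *Slc18a3* had a log2 fold change of 0.66 ± 0.40 SE (adjusted p 0.275).

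Other genes of cholinergic neurons were higher in the Acb as well. Of 8 such genes that are no members, 5 were higher in whole lysates and 7 in heavy polysomal fractions, and 0 were lower (median log2 fold changes 1.43 and 1.51). *Ecel1*, an endothelin-converting enzyme-like protease, had log2 fold changes of 1.46 and 1.61, and *Slc10a4*, a vesicular transporter of the same neurons, 1.41 and 1.59. *Isl1*, a LIM homeobox factor, had 1.12 in whole lysates, and *Ngfr*, a neurotrophin receptor of basal forebrain cholinergic neurons, 2.24 in heavy polysomal fractions. The basal forebrain list was higher in the Acb too, 8 of 9 tested in whole lysates and 6 of 9 in heavy polysomal fractions (*Zic1* 2.01 and 2.28), and cholinergic projection neurons lie among the cells that list marks. Their part in the regional difference of the cholinergic members was not tested.

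*Th*, the first enzyme of dopamine synthesis, was read at 6.79 to 13.1 CPM in the Acb and 2.62 to 5.77 CPM in the DS in whole lysates. The regions did not overlap (2.19-fold, adjusted p 0.00501), nor did they in heavy polysomal fractions, with 5.90 to 11.7 and 1.92 to 5.12 CPM (2.43-fold, adjusted p 0.00128). Within wild-type libraries alone, adjusted p was 0.168 in whole lysates and 0.0543 in heavy polysomal fractions. The dopamine transporter gene *Slc6a3* was at 0 to 1.65 CPM in whole lysates of the Acb and 0 to 0.344 CPM in those of the DS. In heavy polysomal fractions *Slc6a3* was at 0.4175 to 1.36 CPM in the Acb and 0 to 0.0606 CPM in the DS, with at most 30 reads and 1 read. *Foxa2*, a factor of midbrain dopamine neurons, had 0 reads in all libraries. *Slc18a2*, the vesicular monoamine transporter gene, was at 1.56 to 8.49 CPM in whole lysates of the Acb and 0 to 2.23 CPM in those of the DS. Of other dopaminergic genes, 2 of 4 tested were higher and 1 was lower in whole lysates of the Acb, and 2 of 5 were higher and 1 lower in heavy polysomal fractions. *Ddc*, the next enzyme of the pathway, was higher by 1.52 and 1.41 on the log2 scale. The nuclear receptor gene *Nr4a2* ran the other way, by -3.66 and -3.73. This was the largest change among called genes of the list with at least 50 reads on average. *Nr4a2* was at 2.99 to 6.90 CPM in whole lysates of the Acb and 56.1 to 78.9 CPM in those of the DS. The median log2 fold change of the tested genes of the list was 2.53 in whole lysates and 1.80 in heavy polysomal fractions.

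Genes of the somatostatin class gave mixed results. *Sst* was read at 128 to 167 CPM in whole lysates of the Acb (median 142) and 73.0 to 148 CPM in those of the DS (median 91.8), where wild-type replicate 2 was the only library to reach the Acb range. Its log2 fold change was 0.62 ± 0.10 SE (adjusted p 2.72e-06). In heavy polysomal fractions the ranges were 179 to 398 and 144 to 340 CPM, and the log2 fold change of 0.21 did not pass (adjusted p 0.425). It became 0.61 (adjusted p 0.0099) once a trend on transcript length was removed from each library. *Npy*, made by the same cells, was read at 43.2 to 60.7 CPM in the Acb and 54.5 to 61.2 CPM in the DS in whole lysates (log2 fold change -0.06 ± 0.11 SE, adjusted p 0.789). The ratio of *Sst* to *Npy* reads in whole lysates was 2.27 to 3.26 in the Acb (median 2.87) and 1.34 to 2.42 in the DS (median 1.63), which overlapped only through DS wild-type replicate 2.

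*Nos1*, the neuronal nitric oxide synthase, was read at 3.49 to 15.8 CPM in whole lysates of the Acb and 4.81 to 20.6 CPM in those of the DS. Regions overlapped widely, and the log2 fold change was -0.33 ± 0.25 SE (adjusted p 0.42). In heavy polysomal fractions it was -0.19 ± 0.62 SE (adjusted p 0.88). Of 7 other genes of this class, 3 were higher and 1 lower in the Acb in whole lysates, and 5 were higher and 2 lower in heavy polysomal fractions. *Chodl*, a marker of long-range somatostatin and nitric oxide neurons, was higher in heavy polysomal fractions of the Acb by 2.15 on the log2 scale, while the cortistatin gene *Cort* fell by 2.80 and *Crhbp* fell by 1.05. *Cort* and *Crhbp* are also genes of cortical interneurons. The cortical list moved in the same direction, and its part was not tested.

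**Figure D2:**
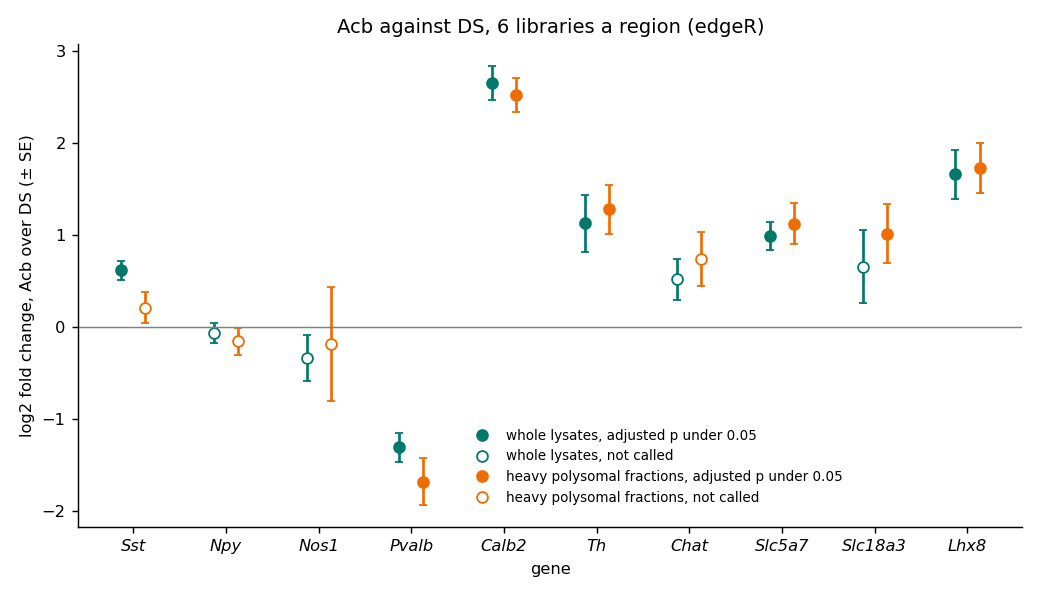
Log2 fold change of the Acb over the DS for each member, with standard errors from edgeR, in whole lysates (green) and heavy polysomal fractions (orange), 6 libraries a region; filled points had an adjusted p under 0.05. *Calb2* lay at 2.65 and 2.52, *Pvalb* at -1.30 and -1.68, and *Npy* and *Nos1* near 0.

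Calretinin, cholecystokinin and VIP mark partly distinct interneurons, and their genes moved in different directions. Of 7 other genes in this list, 3 were higher and 2 lower in whole lysates of the Acb. The transcription factor gene *Sp8* was higher by 1.47 and the corticotropin-releasing hormone gene *Crh* by 1.83 on the log2 scale, as was *Calb2*, whereas *Cck* fell by 2.88 and *Vip* fell by 2.31. *Cck* is also a gene of cortical pyramidal cells, and the cortical list was lower in the Acb as given above. General GABAergic and ganglionic eminence genes were mostly higher in the Acb, 6 of 11 in whole lysates and 7 of 11 in heavy polysomal fractions, with 1 lower in each (*Satb1*, -1.45 and -1.55). *Nkx2-1*, a factor of the ganglionic eminence and its adult cholinergic neurons, was higher by 1.10 and 1.25.

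Heavy polysomal fractions were then compared with whole lysates of the same region, as a relative measure of presence in heavy polysomes. It does not give the number of ribosomes per mRNA. In the Acb, *Npy*, *Sst*, *Lhx8* and *Calb2* were enriched in heavy polysomal fractions, and *Nos1*, *Chat* and *Slc5a7* were depleted (edgeR, adjusted p under 0.05). This was 4 members higher and 3 lower, beside 15.6% of 16687 genes higher and 14.3% lower (29.8% called). In the DS, *Sst*, *Npy* and *Pvalb* were higher and *Nos1*, *Chat* and *Slc5a7* lower, beside 19.5% of 16544 genes higher and 17.5% lower (37.0% called). The median log2 fold change of the members was 0.49 in the Acb and 0.37 in the DS, against 0.04 and 0.03 over all genes. Values are shares of each library, so a rise of one mRNA is relative to the others.

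*Sst* was read at 179 to 398 CPM in heavy polysomal fractions and 128 to 167 CPM in whole lysates of the Acb, with no overlap (log2 fold change 0.94 ± 0.13 SE, adjusted p 2.09e-06). In the DS the heavy range of 144 to 340 CPM just met the lysate range of 73.0 to 148 CPM (1.34 ± 0.13 SE, adjusted p 3.53e-12). *Npy* was read at 81.4 to 148 CPM in heavy polysomal fractions of the Acb and 88.9 to 172 CPM in those of the DS, above every whole lysate (1.19 and 1.28, adjusted p 2.32e-08 and 1.27e-12). Ratios of heavy to whole-lysate CPM were taken between libraries with the same number in their titles, and each such pair is called a lysate here. Each replicate pooled several mice, and residuals of the pairs correlated by only -0.0376 to 0.0743. The ratio was 1.40 to 3.80 for *Sst* and up to 3.25 for *Npy*, above 1 in 12 of 12 lysates for both genes.

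*Pvalb* was enriched in the DS, with 50.0 to 104 CPM in heavy polysomal fractions and 31.5 to 42.0 CPM in whole lysates (0.98 ± 0.14 SE, adjusted p 5.64e-08). In the Acb, heavy polysomal fractions held 6.69 to 34.4 CPM, the lowest in rpS6P-/- replicate 3, and the log2 fold change of 0.61 missed the threshold (adjusted p 0.0542). With each lysate as its own pair the value was 0.50 (adjusted p 0.0495), and without rpS6P-/- replicate 3 it was 0.72 (adjusted p 0.00288). The ratio was above 1 in 11 of 12 lysates. *Calb2* was above 1 in 12 of 12 lysates (1.08 to 2.13), with log2 fold changes of 0.46 in the Acb (adjusted p 0.0184) and 0.60 in the DS (adjusted p 0.0642). The Acb call of *Calb2* was lost without rpS6P-/- replicate 2 or 3 (0.40 and 0.33, adjusted p 0.0894 and 0.0891). It was made with rpS6P-/- libraries alone and not with wild-type libraries alone. Ratios of *Calb2* in the Acb were 1.08 to 1.23 in wild-type and 1.40 to 2.13 in rpS6P-/- lysates. In the DS they were 1.12 to 1.48 and 1.56 to 1.95. The interaction of genotype and fraction did not pass for *Calb2* in either region. How often such ratios lie apart by genotype over all genes was not counted.

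*Nos1* showed the opposite pattern and the largest change. Heavy polysomal fractions held 0.960 to 3.12 CPM in the Acb and 0 to 4.78 CPM in the DS, below every whole lysate of the same region (3.49 to 15.8 and 4.81 to 20.6 CPM). Log2 fold changes were -2.28 ± 0.31 SE in the Acb (adjusted p 1.14e-06) and -2.44 ± 0.42 SE in the DS (adjusted p 3.51e-06). The heavy library of DS rpS6P-/- replicate 3 held 0 *Nos1* reads, which allows up to 3 reads or 0.135 CPM there, against 272 reads in the whole lysate of the same replicate. DS wild-type replicate 1 held 7 reads in its heavy library and 252 in its lysate. The ratio was below 1 in 12 of 12 lysates and at most 0.675. The peptide genes and the synthase gene of the same interneuron class thus stood at opposite ends. The median ratio of *Nos1* to *Sst* reads was 0.0818 in whole lysates and 0.00881 in heavy polysomal fractions of the Acb, and 0.164 and 0.00924 in the DS.

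Genes of acetylcholine handling also differed among themselves. *Chat* was read at 5.17 to 9.03 CPM in heavy polysomal fractions and 13.3 to 19.8 CPM in whole lysates of the Acb (-1.29 ± 0.20 SE, adjusted p 8.1e-06), and at 2.05 to 6.20 against 5.99 to 20.2 CPM in the DS (-1.52 ± 0.29 SE, adjusted p 3.04e-05), where the ranges touched. Its ratio was 0.155 to 0.700, below 1 in 12 of 12 lysates. *Slc5a7* was lower in heavy polysomal fractions by a smaller amount, -0.47 in the Acb (adjusted p 0.0221) and -0.61 in the DS (adjusted p 0.0144), with a ratio below 1 in 10 of 12 lysates. The Acb call of *Slc5a7* was lost without the lysate of wild-type replicate 1 or 2 or rpS6P-/- replicate 1 (adjusted p 0.0834 to 0.124).

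*Slc18a3*, the vesicular acetylcholine transporter gene inside *Chat*, was not depleted. For *Slc18a3* in the Acb, heavy polysomal fractions held 7.12 to 8.79 CPM and whole lysates 2.93 to 6.79 CPM, without overlap, and the log2 fold change of 0.64 just missed the threshold (SE 0.26, adjusted p 0.0559). The same comparison gave an adjusted p of 0.0364 with DESeq2's Wald test and 0.0494 with edgeR's filterByExpr filter. In the DS the value was 0.28 ± 0.43 SE (adjusted p 0.666). The ratio of *Slc18a3* to *Chat* reads within a library was 0.190 to 0.417 in whole lysates of the Acb and 0.962 to 1.57 in heavy polysomal fractions, with no overlap. In the DS these ratios were 0.110 to 0.549 and 0.213 to 3.67, which overlapped. Reads that fall on exons of both genes, which lie on the same strand, are not assigned to either by the counting mode used, which limits the values of both.

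*Lhx8* was enriched in the Acb (0.52 ± 0.18 SE, adjusted p 0.0259), with a ratio of 1.29 to 2.03 in its 6 lysates. This call was lost without the lysate of wild-type replicate 1 or 3 (adjusted p 0.0795 and 0.0606). In the DS its ratio was 0.695 to 2.46 (0.46, adjusted p 0.306). *Th* gave log2 fold changes of -0.09 ± 0.23 SE in the Acb and -0.25 ± 0.38 SE in the DS (adjusted p 0.827 and 0.669). Its ratio was 0.356 to 1.53, above 1 in 5 of 12 lysates.

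**Figure D3:**
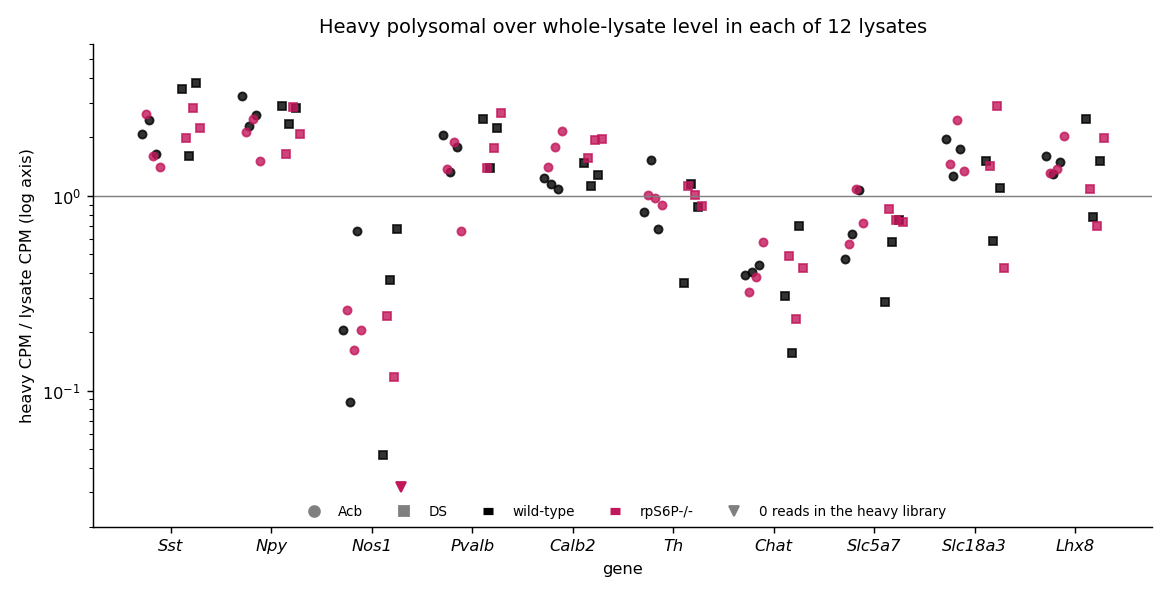
Ratio of the CPM in heavy polysomal fractions to that in the whole lysate of the same replicate, on a log axis, for each member in 12 lysates (circles Acb, squares DS, black wild-type, magenta rpS6P-/-). All ratios of *Sst*, *Npy* and *Calb2* lie above 1 and all of *Nos1* and *Chat* below 1; the triangle stands for the *Nos1* library with 0 reads and is placed at an arbitrary height.

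Coding length moved with the log2 fold change of heavy polysomal fractions over whole lysates across all genes, so the members were set beside genes of like length. The cause of this trend was not tested. Over genes with at least 50 reads on average, Spearman's rho between coding length and the log2 fold change was -0.49 in the Acb (11731 genes) and -0.675 in the DS (11500 genes), across genes that share the same 12 libraries. Genes with fewer than 400 coding bases had a median of -0.09 in the Acb, and the middle 80% of them ran from -1.13 to 0.69. *Sst* (348 coding bases, 0.94) and *Npy* (291, 1.19) lay above that range, while *Pvalb* (330, 0.61) lay inside it. In the DS the corresponding range was -0.37 to 1.17 with a median of 0.53, again below *Sst* (1.34) and *Npy* (1.28).

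*Nos1* (4389 coding bases) lay below the middle 80% of genes with 4000 or more coding bases in both regions, -1.30 to -0.06 in the Acb and -1.38 to -0.20 in the DS. *Chat* (1935 bases) lay below the range of genes with 1200 to 2000 coding bases, -0.44 to 0.51 in the Acb and -0.59 to 0.51 in the DS. *Slc18a3* (1590 bases) belongs to the same length class and lay above it in the Acb (0.64) and inside it in the DS. *Slc5a7* (1740 bases) lay just below its lower end (-0.47 and -0.61), and *Th* (1494), *Calb2* (813) and *Lhx8* (1101) lay inside the range of their class. After removal of a trend on transcript length, *Sst* (0.75 and 0.63), *Npy* (1.09 and 0.53), *Nos1* (-2.17 and -2.25) and *Chat* (-1.37 and -1.57) kept an adjusted p under 0.05 in both regions and *Pvalb* in the DS (0.33), by edgeR. *Slc5a7* lost its call in both regions, and *Calb2* and *Lhx8* lost theirs in the Acb.

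**Figure D4:**
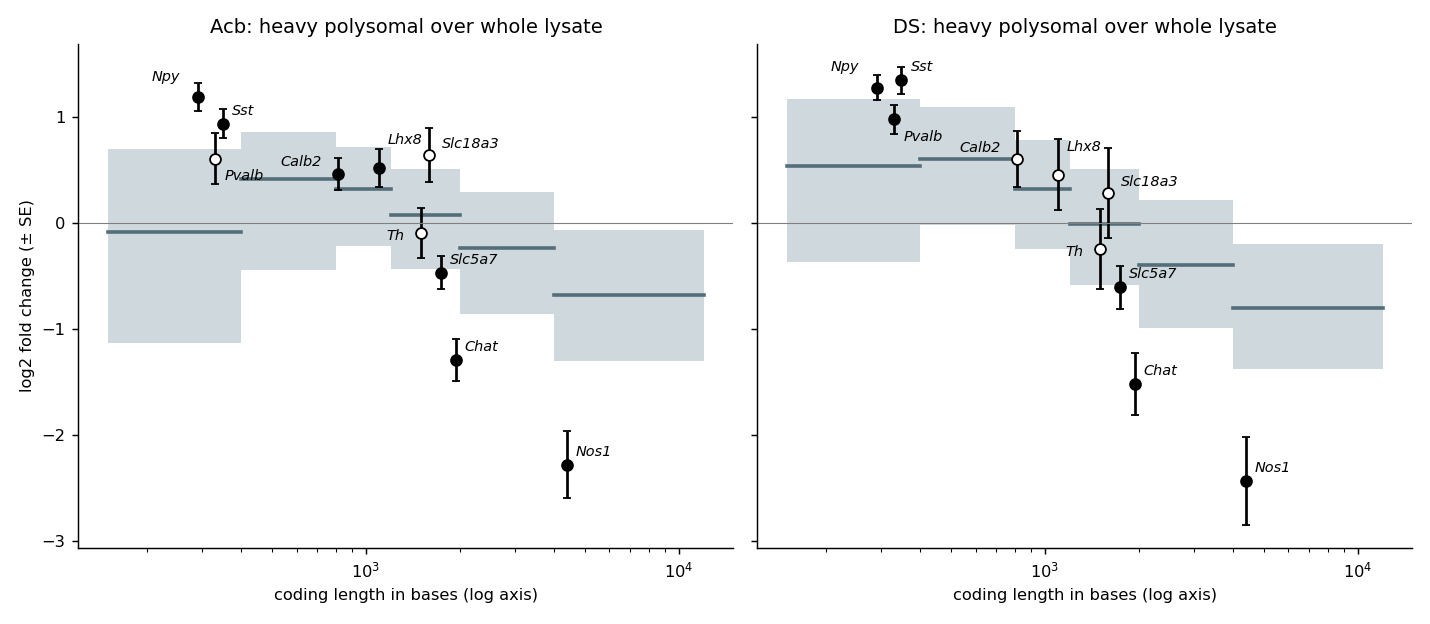
Log2 fold change of heavy polysomal fractions over whole lysates against coding length in bases (log axis) for the Acb and the DS; points are members with standard errors, filled where the adjusted p was under 0.05. Grey boxes span the middle 80% of all genes in 6 length classes, with their median as a line; *Nos1* and *Chat* lie below their boxes and *Sst* and *Npy* above.

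The other interneuron lists were counted in the same comparisons, in which 29.8% of all genes were called in the Acb and 37.0% in the DS. Of the 8 other cholinergic genes, 2 were higher in heavy polysomal fractions of the Acb (*Ngfr* 1.08 and *Isl1* 0.45) and 1 in the DS (*Isl1* 0.56), and 0 were lower. In the somatostatin list, 1 of 7 was higher in the Acb (*Nxph1* 0.57), and in the DS 2 were higher (*Cort* 2.09 and *Nxph1* 0.62) and 1 lower. The list of fast-spiking cells had 1 of 8 higher and 1 lower in the Acb, and 1 higher and 2 lower in the DS, where *Cox6a2* had 1.21 and *Erbb4*, a long receptor gene, -1.61. Of the calretinin, cholecystokinin and VIP list, 2 of 7 were higher in the Acb (*Vip* 0.90 and *Crh* 0.73) and 3 of 7 in the DS (*Crh* 1.32, *Cck* 1.06 and *Cxcl14* 0.65), and 0 were lower. GABAergic and ganglionic eminence genes were lower in 4 of 11 cases in the Acb, with 0 higher, and in 5 of 11 in the DS, with 1 higher (*Lhx6*, 0.41). The lower genes included the GABA-synthesising *Gad2* (-0.49 and -0.85).

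The difference between heavy polysomal fractions and whole lysates was next compared between regions, as the interaction of region and fraction over 24 libraries. None of the 10 members had an adjusted p under 0.05 with edgeR, 0 had an unadjusted p under 0.05, and DESeq2's Wald test also called 0, while 0.328% of 17365 genes were called by edgeR. The values nearest to a difference were those of *Sst* (-0.38 ± 0.21 SE, adjusted p 0.396) and *Pvalb* (-0.33 ± 0.29 SE, adjusted p 0.644). Standard errors of up to 0.61 (*Nos1*) bound what could be seen.

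The genotypes were compared last, within each region and kind of RNA. None of the members was called in rpS6P-/- mice in any of the 4 comparisons, which gave 40 tests, by edgeR or by DESeq2's Wald test. The share of all genes called by edgeR in the Acb was 0.0% for heavy polysomal fractions (16227 genes) and 0.0065% for whole lysates, and in the DS 0.044% and 0.122%. DESeq2's Wald test called 6.72% of genes in heavy polysomal fractions of the Acb, where the study, also with DESeq2, reported many differentially expressed mRNAs. An unadjusted p under 0.05 was reached in 5 of the 40 tests, beside 10.2% of all 63117 tests over genes in these comparisons. Libraries of the genotypes did not overlap in 6 of the 40, beside 14.6% over all genes, and both counts are near that background. Log2 fold changes of the members ran from -0.76 (*Lhx8*) to 0.82 (*Slc5a7*), both among heavy polysomal fractions of the DS, where the largest standard error was 0.86 (*Nos1*). The *Lhx8* value was -0.11 without DS wild-type replicate 1, its highest DS library (14.3 CPM).

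In the Acb, heavy polysomal fractions held *Calb2* at 40.2, 47.8 and 58.3 CPM in wild-type and 61.5, 60.3 and 72.6 CPM in rpS6P-/- libraries. All rpS6P-/- libraries were above all wild-type ones, but the log2 fold change of 0.45 ± 0.18 SE did not pass over all genes (adjusted p 0.164). Acb whole lysates gave 32.6, 41.9 and 53.8 against 43.8, 34.0 and 34.0 CPM, which overlapped. The interaction of genotype and fraction gave 0.64 ± 0.27 SE for *Calb2* in the Acb (adjusted p 0.347).

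*Sst* in heavy polysomal fractions of the DS was 318, 236 and 340 CPM in wild-type and 144, 268 and 206 CPM in rpS6P-/- libraries, with overlap (-0.52 ± 0.19 SE, adjusted p 0.638). Whole lysates of the DS gave 90.4, 148 and 89.6 against 73.0, 95.6 and 93.2 CPM (-0.35 ± 0.14 SE, adjusted p 0.43). Without DS wild-type replicate 2 the whole-lysate value was -0.05. In the Acb it was -0.29 in heavy polysomal fractions, or 0.25 once the length trend was removed, and -0.20 in whole lysates, with overlap in both. *Npy* had -0.38 and -0.12 in the 2 kinds of DS RNA and -0.26 and 0.10 in those of the Acb.

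*Slc5a7* in heavy polysomal fractions of the DS was 4.38, 9.76 and 12.3 CPM in wild-type and 16.6, 17.3 and 12.8 CPM in rpS6P-/- libraries, without overlap. The log2 fold change was 0.82 ± 0.32 SE (adjusted p 0.712), and the lowest wild-type value rests on 48 reads. *Nos1* in whole lysates of the DS was 13.7, 12.9 and 4.81 against 18.0, 20.6 and 16.3 CPM, also without overlap (0.78 ± 0.28 SE, adjusted p 0.334). Wild-type replicate 3 held the lowest *Nos1* level in whole lysates of both regions, and the DS value was 0.45 without it. The other comparisons without overlap were *Npy*, *Pvalb* and *Slc5a7* in whole lysates of the DS, with log2 fold changes of -0.12, -0.20 and 0.28.

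**Figure D5:**
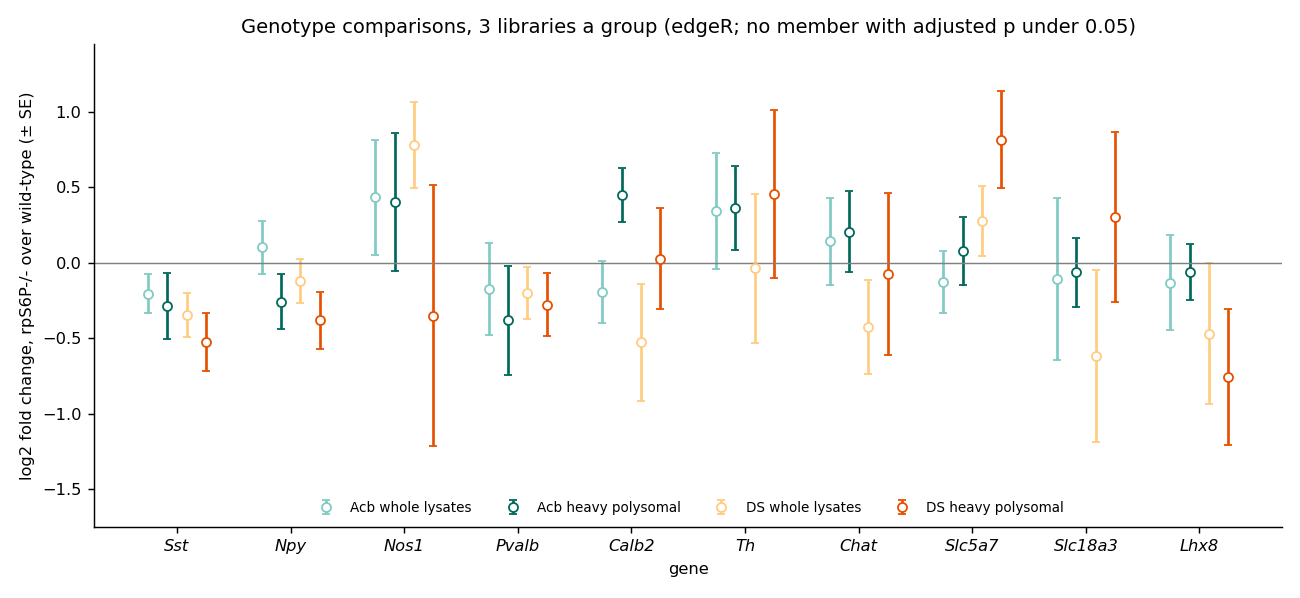
Log2 fold change of rpS6P-/- over wild-type mice with standard errors from edgeR for each member in whole lysates and heavy polysomal fractions of the Acb and DS, 3 libraries a group. No point had an adjusted p under 0.05; *Slc5a7* (0.82) and *Lhx8* (-0.76) in heavy polysomal fractions of the DS lie farthest from 0.

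The interaction of genotype and fraction, a measure of altered translational efficiency, called 0 of 10 members in either region with edgeR, and 0 with DESeq2's Wald test. An unadjusted p under 0.05 was reached by 1 member in the Acb (*Calb2*) and 0 in the DS. With the Xtail tool, the study reported mRNAs of altered translational efficiency in both regions, more of them in the Acb. Over all genes edgeR called 0.0% in the Acb and 0.0% in the DS. Other interneuron genes gave the same count, since 0 of the 8 cholinergic, 7 somatostatin, 8 fast-spiking and 7 calretinin and cholecystokinin genes passed in any genotype comparison.

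Patterns over all libraries were compared with those of 11979 genes, as Pearson correlations of log2 CPM over the 24 libraries, which share the contrasts of region and fraction described above. *Calb2* was most like *Tmem255a* (r = 0.969), *Sox1* (0.963) and *Pnck* (0.962), and among members it followed *Lhx8* (0.899). The genes nearest to *Lhx8* were *P2ry1* (0.923), *Igsf1* (0.885) and *Dlk1* (0.88), and those nearest to *Th* were *Irs4* (0.899), *Pltp* (0.875) and *Asb4* (0.874). For *Slc5a7* they were *Vldlr* (0.919), *AW551984* (0.914) and *9330182L06Rik* (0.913). The peptide genes gave 0.856 with each other. *Sst* was nearest to *Rabac1* (0.954), *Bex2* (0.954) and *Sod1* (0.945), and *Npy* to *H3f3a* (0.971), *Acot13* (0.97) and *Ift57* (0.965). *Pvalb* was nearest to *Rgs7bp* (0.951), *Fxyd7* (0.941) and *Dusp3* (0.94), and *Nos1* to *Fam135b* (0.904), *Pcdhgc5* (0.898) and *Prdm2* (0.894). *Chat* and *Slc18a3* gave -0.02 with each other. *Chat* was nearest to *Plxna4* (0.905), *Gad1* (0.898) and *Rasgrf1* (0.892), whereas *Slc18a3* was nearest to *Galnt2* (0.827), *Hmgn5* (0.823) and *Fcrls* (0.817).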

How the data were processed

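The 10 genes, the marker lists and the tests were chosen with earlier results of these data known. Raw counts of reads per gene, deposited by the authors without normalization, were used for 24079 genes in 24 libraries, and 0 columns were left out. Per the methods and the submitters' processing notes, stranded TruSeq libraries were aligned to mm10 (GRCm38) with TopHat 2.0.13 and Bowtie 2.2.3, alignments with more than 3 mismatches were discarded, and reads of the opposite strand were assigned to genes with HTSeq 0.6.1p1 in union mode, which leaves out reads that fall on 2 genes.

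A gene needed at least 15 reads summed over the libraries compared, the minimum of the study. Comparisons used the quasi-likelihood test of edgeR 4.0.16 with TMM scaling in R 4.3.3, with p-values adjusted over all genes by the Benjamini-Hochberg method and a threshold of 0.05. Region (12 libraries of a kind of RNA) and fraction (12 libraries of a region) were fitted with genotype as a covariate, and genotypes were compared within each region and kind of RNA. CPM are counts scaled by TMM over all libraries. The floor of 3 reads covers counting error only. The number of mice pooled per replicate differs between parts of the study's text, and p-values measure the spread between these pools.

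The alternatives were DESeq2's size factors, the Wald test of DESeq2 1.42.0, the filterByExpr filter, no filter beyond 1 read, removal of a transcript length trend (loess, span 0.5), the replicate block, 1 genotype alone, all 24 libraries in one fit, and leaving out each replicate. The main fits paired no libraries, so both libraries of a lysate entered the fraction comparisons and interactions as separate ones. Heavy polysomal and whole-lysate libraries with the same number in their titles were paired for ratios within a lysate and for the replicate block of those comparisons. Per the methods, part of each sample was kept as input before the gradient. Residuals of these pairs correlated by -0.0376 to 0.0743 (0 of 12 pairs above 0.1).

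All members were named in every comparison. Genes of the interneuron lists were given by counts, with up to 4 examples of the largest change that passed the test and had 50 reads on average, and the 3 genes nearest to each member by correlation were named. *Zic1*, *Gad1* in the basal forebrain list, *Slc6a3*, *Slc18a2* and *Foxa2* were named after their values were seen. Coding lengths came from GENCODE M21 and positions and promoters from RefSeq on GRCm38.p6. The scripts were tested on simulated data. Python 3.11.15 with pandas 2.3.3 and matplotlib 3.10.9 drew the plots.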

Additional observations from a re-analysis of the deposited data

How the results depend on the processing

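Of 163 counts of members called under an alternative, 162 were within 1.5 times the main count. All counts of the genotype comparisons and of the interactions are among the 162, with 0 members called in the main fit and in the alternative. The exception was heavy polysomal against whole-lysate RNA in the Acb, where removing the transcript length trend left 4 members called instead of 7. Of the 25 member calls, 18 were kept under every alternative and 0 changed direction. With the replicate block, which there pairs both RNAs of a lysate, the fraction comparison called 8 members in the Acb (*Pvalb* added, 0.50) and 6 in the DS. Same-numbered libraries of the genotypes correlated by -0.294 to 0.319 and those of the regions by -0.255 to 0.217. Heavy polysomal and whole-lysate libraries of a number gave only -0.0376 to 0.0743, so such values cannot show whether a number marks a common origin. Blocking on the number added *Chat* to the region calls in whole lysates (7 members). Over single libraries left out, 6 to 7 members were called between regions in whole lysates, 5 to 6 in heavy polysomal fractions, and 0 in every genotype comparison. For fractions and interactions both libraries of a number were left out together. This gave 5 to 7 members between fractions in the Acb, 6 in the DS, and 0 in every interaction. Restricting the region and fraction comparisons to 1 genotype lost calls of *Th*, *Slc18a3*, *Calb2*, *Lhx8* and *Slc5a7*. Over all genes, the Wald test of DESeq2 called 1090 genes between genotypes in heavy polysomal fractions of the Acb. There edgeR called 0 in the main fit and 549 with no filter beyond 1 read. It called 813 with all 24 libraries fitted together and 98 with the replicate block. In whole lysates of the DS the Wald test called 95 and edgeR 19 in the main fit, 66 without the filter and 71 with the block. The counts were 17, 7, 37 and 31 in its heavy polysomal fractions and 327, 57, 477 and 322 for region by fraction, in that order, with 0 members in each. Fits on the 6 libraries of 1 genotype called fewer genes, down to 1693 between regions in whole lysates (3153 with 12 libraries), 1316 in heavy polysomal fractions (3336), and 2704 and 3797 between fractions in the Acb and DS (4981 and 6114). Depth limits *Nos1*, *Chat*, *Slc18a3* and *Th*, with 0 to 309 reads in heavy libraries. The causes of these changes were not tested.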
